A study of Mus musculus with 12 samples.

Results

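The subject here is the expression of 10 genes of the piRNA pathway (Mael, Tdrd1, Tdrd9, Tdrd12, Piwil2, Mov10l1, Asz1, Ddx4, Gtsf1 and Gpat2) in the epithelium of the mouse urogenital sinus at embryonic day 15.5. The genes were chosen by name, and all 10 had a row among the 20308 gene symbols of the deposited table. The 12 RNA-seq libraries fall into Control (4 libraries, wildtype embryos) and Dnmt1cKO (8 libraries, embryos in which a Shh cre driver deleted Dnmt1, the maintenance DNA methyltransferase, in this epithelium). Both groups are labelled C57BL/6J and embryonic day 15.5. The epithelium was freed from the stroma with trypsin, and tissue from several embryos went into each lysate, so a library stands for a pool of embryos. The deletion is limited to cells that expressed Shh cre and their descendants, and the labels give neither the Dnmt1 allele nor the Cre status of the Control embryos.

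piRNAs are small RNAs bound by PIWI proteins, and they guide the silencing of transposons in germ cells. Long precursor transcripts are unwound, cut at the surface of mitochondria and in germ granules next to them, trimmed, and loaded onto PIWI proteins. Tudor domain proteins hold the complexes together by binding methylated arginines of the PIWI proteins. In fetal male germ cells the pathway also directs new DNA methylation to transposons in the nucleus. Most of its genes are transcribed in germ cells and little elsewhere, and several of their promoters are known to carry DNA methylation in somatic tissue.

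In Dnmt1cKO, 5 of the 10 genes were called higher than in Control (Asz1, Gpat2, Ddx4, Mov10l1 and Mael), where 1.03% of all 12761 genes tested were called higher (edgeR's quasi-likelihood test, adjusted p under 0.05). Their means were 17.8 to 25.2 CPM (counts scaled to the adjusted total of each library) in Dnmt1cKO, while Control held no count of 4 of them and 1 count of Mael. Tdrd9, Gtsf1 and Piwil2 appeared in some Dnmt1cKO libraries, at means of 1.63, 1.78 and 5.29 CPM, and did not pass the test. Tdrd1 had counts in 3 of the 4 Controls and in all 8 Dnmt1cKO libraries. Tdrd12 stayed under 1 CPM in 7 of 8 Dnmt1cKO libraries. By a fixed rule, a gene counts as present in Dnmt1cKO at 1 CPM or more in all 8 libraries, as silent when under 1 CPM in at least 7 of 8, and as patchy otherwise. By this rule 3 of the genes were present (Asz1, Gpat2 and Tdrd1), 6 were patchy and 1, Tdrd12, was silent.

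**Figure D1:**
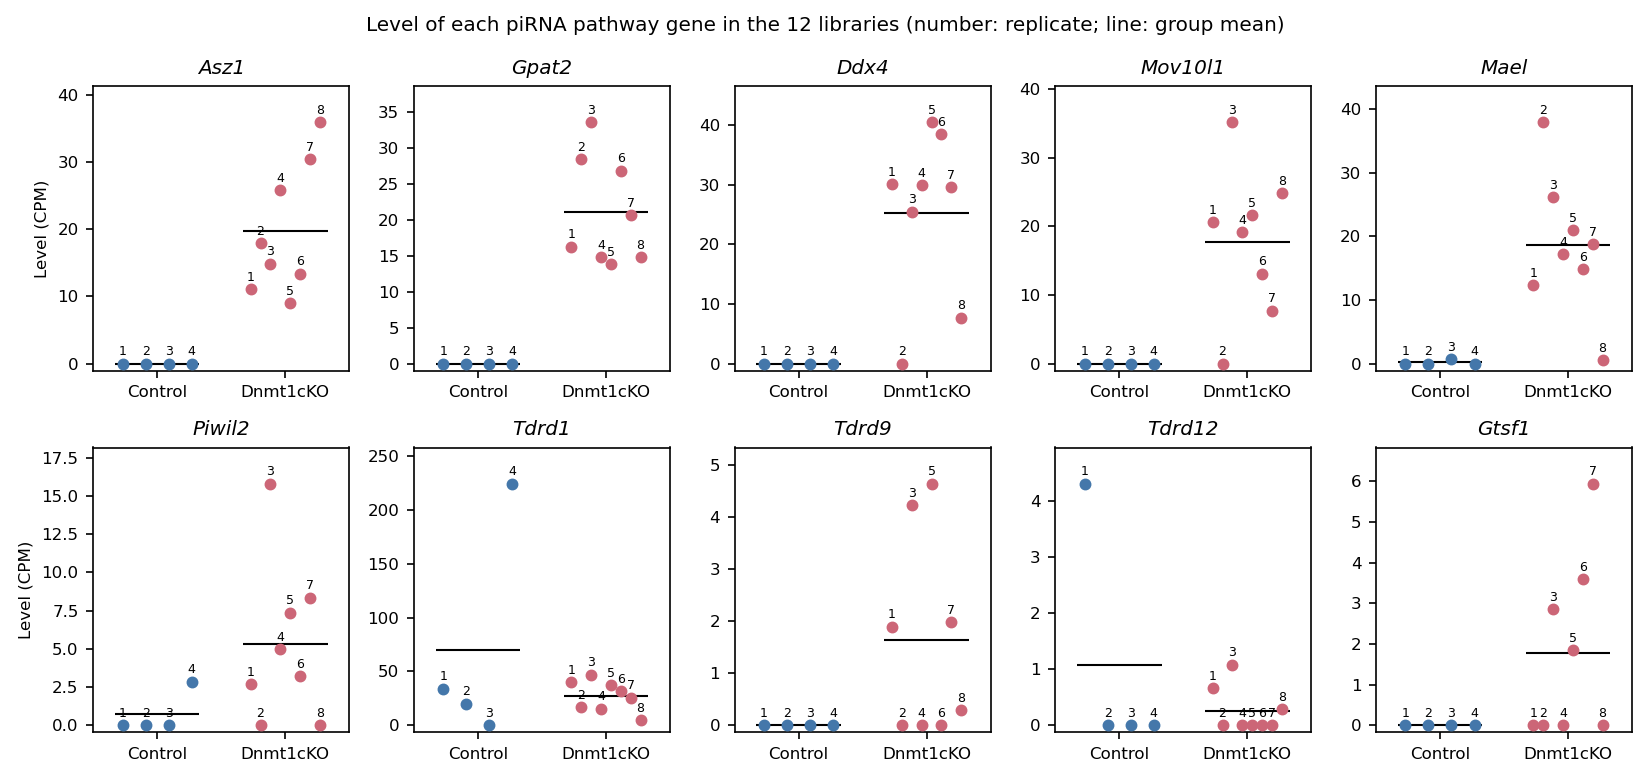
CPM of each of the 10 genes in each library, where points are single libraries of Control and Dnmt1cKO. Asz1 and Gpat2 lie between 9.03 and 35.9 CPM in all 8 Dnmt1cKO libraries and at 0 in all 4 Controls, and the Tdrd1 values of both groups overlap, with a Control library at 224.6 CPM.

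The promoter windows of the 5 called genes and of Tdrd12 are printed because the deleted enzyme acts on CpG sites, and because these genes lie at the ends of the range from called to silent. Each window runs from 250 bases before to 50 bases after the gene start in RefSeq (build GRCm38.p6), 5′ to 3′ on the strand of the gene. Where several starts were listed, the first was used, as for Tdrd12 (2 windows listed) and Tdrd1 (3 windows listed). Their other starts were not examined. Capitals mark the E-box (CACGTG) and an E2F-type sequence searched on both strands (GCGGGA on the strand of the gene, or its reverse complement). The windows lie at chr1:166238695-166238994 on the minus strand for Mael, chr15:88982744-88983043 on the plus strand for Mov10l1, chr6:18109012-18109311 on the minus strand for Asz1, chr13:112652261-112652560 on the minus strand for Ddx4, chr2:127424949-127425248 on the plus strand for Gpat2 and chr7:35537666-35537965 on the minus strand for Tdrd12.
Mael: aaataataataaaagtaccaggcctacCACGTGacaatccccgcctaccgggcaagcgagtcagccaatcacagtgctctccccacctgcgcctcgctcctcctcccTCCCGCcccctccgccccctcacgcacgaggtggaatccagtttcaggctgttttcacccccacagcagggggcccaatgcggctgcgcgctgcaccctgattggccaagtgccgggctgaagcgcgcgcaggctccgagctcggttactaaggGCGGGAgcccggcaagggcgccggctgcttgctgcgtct
Mov10l1: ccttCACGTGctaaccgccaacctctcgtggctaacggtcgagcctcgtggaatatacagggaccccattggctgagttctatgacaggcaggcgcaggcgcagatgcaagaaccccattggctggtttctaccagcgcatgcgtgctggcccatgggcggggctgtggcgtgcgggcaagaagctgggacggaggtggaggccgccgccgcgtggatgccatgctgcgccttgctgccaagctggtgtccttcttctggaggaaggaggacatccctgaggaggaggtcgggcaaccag
Asz1: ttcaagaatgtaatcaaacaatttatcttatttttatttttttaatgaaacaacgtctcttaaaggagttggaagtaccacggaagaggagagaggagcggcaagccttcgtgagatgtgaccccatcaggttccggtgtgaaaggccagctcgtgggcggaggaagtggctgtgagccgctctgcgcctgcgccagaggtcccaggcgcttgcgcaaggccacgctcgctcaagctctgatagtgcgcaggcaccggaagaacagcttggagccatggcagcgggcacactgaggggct
Ddx4: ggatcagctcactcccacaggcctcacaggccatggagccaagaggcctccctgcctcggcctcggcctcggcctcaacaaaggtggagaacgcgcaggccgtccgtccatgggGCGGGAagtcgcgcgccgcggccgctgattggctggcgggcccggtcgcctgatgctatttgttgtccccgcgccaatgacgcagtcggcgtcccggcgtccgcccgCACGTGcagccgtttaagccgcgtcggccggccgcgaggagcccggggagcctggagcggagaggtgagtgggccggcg
Gpat2: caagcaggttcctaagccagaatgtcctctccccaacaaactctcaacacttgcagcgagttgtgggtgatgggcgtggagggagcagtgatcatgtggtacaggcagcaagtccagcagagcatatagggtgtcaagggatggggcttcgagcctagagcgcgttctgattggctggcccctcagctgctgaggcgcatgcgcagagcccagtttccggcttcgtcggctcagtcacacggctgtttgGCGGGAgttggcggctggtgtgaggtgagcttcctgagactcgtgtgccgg
Tdrd12: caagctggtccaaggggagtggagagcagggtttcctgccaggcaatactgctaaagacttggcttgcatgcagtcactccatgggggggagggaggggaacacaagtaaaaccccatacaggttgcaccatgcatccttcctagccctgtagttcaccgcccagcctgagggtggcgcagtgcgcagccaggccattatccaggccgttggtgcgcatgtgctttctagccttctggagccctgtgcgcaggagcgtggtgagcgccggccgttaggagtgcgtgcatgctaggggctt

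The called genes Mael, Ddx4 and Mov10l1 share the E-box, Mael, Ddx4 and Gpat2 share the E2F-type sequence, and the Asz1 and Tdrd12 windows hold neither. Windows of 9 of the 10 genes were in the RefSeq table (Piwil2 was not matched), and CACGTG stood in 5 of these 9 against 7.24% of the 27025 gene windows of the same length. The other E-box windows were those of Tdrd1 and Tdrd9, neither of which was called, and Tdrd9 held 2 copies. GCGGGA on either strand stood in 3 of 9 windows against 20.0% of all windows, and Mael held 2 copies. The Myb-type sequence TAACNG, read on both strands, stood in Mael, Mov10l1 and Tdrd12, against 23.2% of all windows. None of the 3 sequences was found in the Asz1 or Gtsf1 window. CACGTG and GCGGGA each contain a CpG, and CpGs were more frequent in the 9 windows than over all windows. The shares over all windows were not matched for this. A match describes letters only, and methylation and factor binding were not measured here.

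CpG sites were frequent in these windows. The median was 17 per window over the 9 genes and 7 over all windows, and the median ratio of observed to expected CpG was 0.674 against 0.389. Ddx4 held 38 CpGs, Mael 24, Mov10l1 20, Asz1 17 and Gpat2 15. Among the genes that were not called, Tdrd1 held 20, Gtsf1 13, Tdrd12 11 and Tdrd9 10. The 3 windows with the fewest CpGs thus belong to genes that were low or near 0 in Dnmt1cKO. No test was made of this order over 9 genes.

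**Figure D2:**
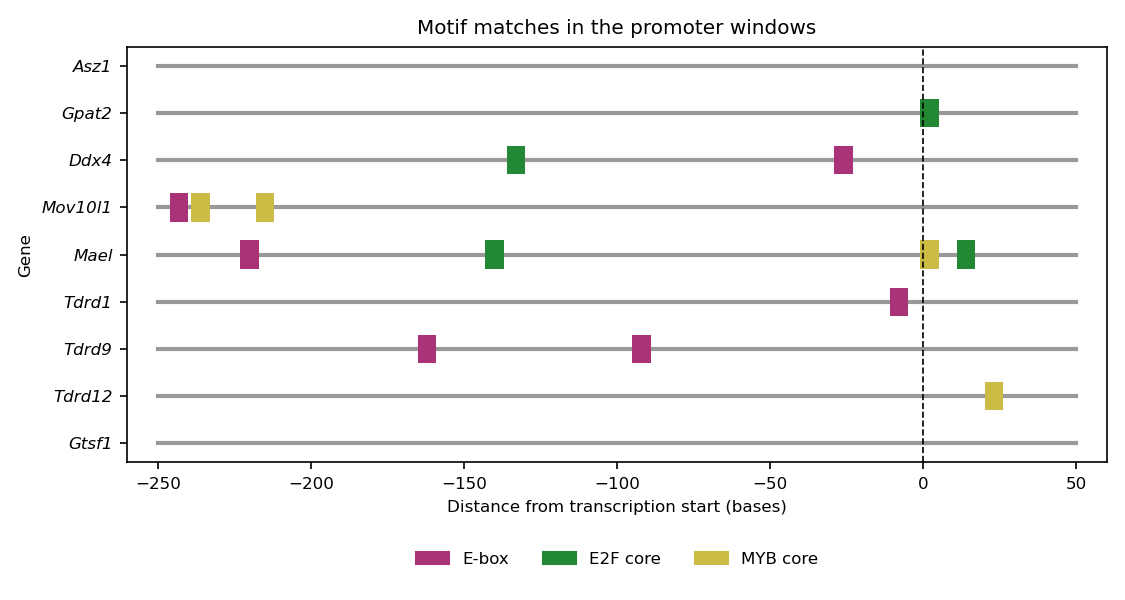
Positions of the E-box, the E2F-type and the Myb-type sequence (either strand) in the 9 matched windows, as distance in bases from the gene start, from 250 before to 50 after. Mael, Tdrd1, Tdrd9, Mov10l1 and Ddx4 carry the E-box, and Asz1 and Gtsf1 carry none of the 3 sequences.

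Library depth differed widely and touches all of these values. Control totals were 543591 to 7577706 expected counts, and Dnmt1cKO totals 4007533 to 11970907. A level of 3 counts corresponded to 0.369, 1.01, 2.26 and 8.53 CPM in Controls 1 to 4 and to between 0.219 and 0.856 CPM in Dnmt1cKO, so absence from Controls 3 and 4 is a weak statement. The log2 difference of Dnmt1 itself was -1.285 (SE 0.63) and did not pass (edgeR adjusted p 0.284). Its level was 164.4, 114, 236.7 and 2.84 CPM in Controls 1 to 4 and 22.8 to 97.0 CPM in Dnmt1cKO. The shallowest Control therefore had less Dnmt1 RNA, 1 count, than any Dnmt1cKO library. This value goes against its label, but it also lies below both groups. In the same library Prmt5 had 2 counts and Mov10 0, while Wdr77 had 151. It is called the library labelled Control 4 below. Markers of epithelium had counts in both groups for 10 of 10 genes. Their summed level was 3730 to 25300 CPM in Control and 4680 to 7740 CPM in Dnmt1cKO, so epithelial RNA was present in both groups. Control 3 was uneven, with Trp63 and Foxa1 at 2.26 CPM each, Shh at 3.77 and Krt19 at 11.3. In the same library Epcam stood at 782.5 and Cdh1 at 863.2 CPM. Stroma markers there summed to 10000 CPM, above its epithelium sum of 3730 CPM. Markers of stroma summed to 1270 to 10000 CPM in Control and 265 to 6230 CPM in Dnmt1cKO. In bulk RNA, fewer cells of a type and less RNA per cell cannot be told apart.

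Germ cells are where these genes are normally active. Of 8 markers of fetal germ cells, 4 (Nanog, Nanos3, Dnd1 and Lin28a) had any count in Dnmt1cKO and 1, Nanog, in Control. Pou5f1, Dppa3, Prdm14 and Nanos2 were at 0 in all 12 libraries. The summed germ cell markers ran from 0 through a median of 4.49 to 55.3 CPM in Dnmt1cKO and from 0 through 4.77 to 11.3 CPM in Control. Of 8 markers of the somatic cells of the fetal gonad, Amh, Insl3, Cyp17a1, Cyp11a1 and Nr5a1 were at 0 in all 12 libraries. The sum over these 8 was 0 to 18.8 CPM in Dnmt1cKO and 0 to 341 CPM in Control, where all of it was Inha and the highest value was that of the library labelled Control 4. No marker of either list was called in either direction, but most of them could not have been. Markers at 0 in all 12 libraries, or with counts in only a few, cannot pass the filter on low counts. The lack of a call therefore says nothing about them. The part of other cells in the levels below was not tested beyond these values.

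Asz1 and Gpat2, which act at the mitochondrial surface, were the most regular of the 10 genes. Asz1 (chr6:18050964-18109061, minus strand, mm10) encodes a scaffold protein of the mitochondrial outer membrane that gathers piRNA factors in the intermitochondrial granules. It was at 0 in all 4 Controls, and in Dnmt1cKO its lowest, median and highest values were 9.03, 16.4 and 35.9 CPM. The groups did not overlap. The mean was 19.8 ± 9.78 CPM (SD, n = 8), at least 84.4-fold above a floor of 3 counts over the whole Control group, and at least 30.7-fold with Control 1, the deepest Control, left out of the floor. The fitted log2 fold change was 10.18 (SE 2.06) with an adjusted p of 0.00579 in edgeR's quasi-likelihood test.

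Gpat2 (chr2:127425199-127436092, plus strand) encodes a mitochondrial acyltransferase that binds PIWI proteins and is needed for making primary piRNAs. It was at 0 in all 4 Controls and at 13.9, 18.5 and 33.6 CPM (lowest, median, highest) in Dnmt1cKO. Every Dnmt1cKO library again lay above every Control, and the coefficient of variation of 35.6% was the smallest among the 10 genes. The mean of 21.2 ± 7.55 CPM (SD, n = 8) was at least 90.2-fold above the Control floor, or 32.8-fold without Control 1. The log2 fold change was 10.28 (SE 2.01, edgeR adjusted p 0.00395). Pld6, the mitochondrial nuclease that cuts piRNA precursors, had 1 count over all 8 Dnmt1cKO libraries and 7 over the Controls, and was silent by the rule. Asz1 and Gpat2 thus stood above 9 CPM in libraries in which this nuclease had almost no counts.

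The helicases Ddx4 and Mov10l1 appeared in 7 of 8 Dnmt1cKO libraries. Ddx4 (chr13:112598333-112652475, minus strand) encodes the germ cell RNA helicase also known as Vasa, a component of germ granules. It was at 0 in all 4 Controls and, in Dnmt1cKO 1 to 8, at 30.1, 0, 25.5, 29.9, 40.5, 38.6, 29.6 and 7.70 CPM. Dnmt1cKO 2 was thus at 0 like the Controls, and Dnmt1cKO 8 lay well below the rest. The mean was 25.2 ± 14.2 CPM (SD, n = 8), at least 107.5-fold above the Control floor and 39.1-fold without Control 1, with a log2 fold change of 10.54 (SE 2.24, edgeR adjusted p 0.00805).

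Mov10l1 (chr15:88982909-89055152, plus strand) encodes the helicase that feeds piRNA precursors to the processing machinery. It was at 0 in all 4 Controls and at 20.6, 0, 35.1, 19.2, 21.7, 13.1, 7.71 and 24.8 CPM in Dnmt1cKO 1 to 8. Only Dnmt1cKO 2 overlapped with the Controls. The mean of 17.8 ± 10.8 CPM (SD, n = 8) was at least 75.7-fold above the Control floor, 27.5-fold without Control 1, and the log2 fold change was 10.03 (SE 2.32, edgeR adjusted p 0.0155). Mov10, its paralog of somatic cells, was at 14.1 ± 15.99 CPM in Control (SD, n = 4) and 16.3 ± 8.37 CPM in Dnmt1cKO (SD, n = 8). Its log2 difference of 0.15 did not pass (edgeR adjusted p 0.961).

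Of the PIWI proteins, which bind the piRNAs themselves, none was called. Piwil2 (chr14:70372477-70429383, minus strand; also known as MILI) cuts transposon RNA in the cytoplasm and was the most abundant of the 3. It had a single count in the Controls, in the library labelled Control 4, where 1 count equals 2.84 CPM. In Dnmt1cKO 1 to 8 it stood at 2.70, 0, 15.8, 4.95, 7.37, 3.20, 8.33 and 0 CPM. The groups overlapped through Dnmt1cKO 1, 2 and 8. The mean was 5.29 ± 5.23 CPM in Dnmt1cKO (SD, n = 8) and 0.711 ± 1.42 CPM over the Controls (SD, n = 4). Against 1 count over the summed depth of all 4 Controls the ratio was 67.7 (95% counting interval 12.1 to 2672), a value set mainly by the depth of Control 1 and not by the library that held the count. The fitted log2 fold change, 4.46 (SE 2.29), missed the threshold (edgeR adjusted p 0.31). With Controls 1 and 2 alone set against 6 Dnmt1cKO libraries (2 and 8 left out), it passed with a log2 fold change of 9.13 (edgeR adjusted p 0.0403). That setting was chosen after seeing the data.

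Piwil4 (MIWI2), the nuclear PIWI protein of fetal germ cells, was at 1 CPM or more in 3 of 8 Dnmt1cKO libraries, with 85 counts there and 1 in the Controls. Piwil1 (MIWI), the PIWI protein of later spermatogenesis, had 2 counts in all 8 Dnmt1cKO libraries and none in the Controls. Both had too few counts for the test.

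The tudor domain genes differed among themselves. Tdrd1 (chr19:56826209-56870012, plus strand) encodes a protein that binds the methylated arginines of MILI. Its Control values were 33.8, 19.9, 0 and 224.6 CPM, and its lowest, median and highest values in Dnmt1cKO were 4.85, 28.6 and 47.0 CPM. It was the one member with counts in both of the deeper Controls, and the groups overlapped over nearly the whole Dnmt1cKO range. The log2 difference was -1.31 (SE 0.86, edgeR adjusted p 0.46). Without the library labelled Control 4, which alone stood above all Dnmt1cKO libraries, it was 0.66 (edgeR adjusted p 0.803), so its direction rests on that library.

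Tdrd9 (chr12:111971559-112068854, plus strand) encodes a tudor domain helicase that works with the nuclear PIWI protein. It was at 0 in all 4 Controls, and at 1.90, 4.24, 4.65 and 1.98 CPM in Dnmt1cKO 1, 3, 5 and 7, with 0.285 CPM in Dnmt1cKO 8 and 0 in the other three. Those levels lie below the floor of 3 counts in the library labelled Control 4, and some of them below that of Control 3. The mean of 1.63 ± 1.92 CPM (SD, n = 8) was at least 6.95-fold above the Control floor, 2.53-fold without Control 1, while the fitted log2 fold change, 6.61 (SE 2.92), missed the threshold (edgeR adjusted p 0.225). Tdrd12 (chr7:35469098-35537745, minus strand), a helicase-like tudor protein needed for secondary piRNAs, had 35 counts in the Controls, all of them in Control 1 (4.30 CPM), and 24 in Dnmt1cKO. Its Dnmt1cKO values were 0.657, 1.08 and 0.285 CPM in libraries 1, 3 and 8 and 0 elsewhere. It failed the filter on low counts, and in the unfiltered table of 15825 genes its log2 difference was -2.08 (edgeR adjusted p 0.578).

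Among the other tudor genes, Stk31, a tudor protein with a kinase-like domain, was the single gene called higher. It was at 0 in all 4 Controls and at 9.27, 15.7, 6.40, 10.5, 9.39, 14.1, 12.8 and 0.571 CPM in Dnmt1cKO 1 to 8, so that the groups did not overlap but Dnmt1cKO 8 held almost none. The mean was 9.84 ± 4.78 CPM (SD, n = 8), at least 41.9-fold above the Control floor and 15.2-fold without Control 1, and the log2 fold change was 9.18 (SE 2.34, edgeR adjusted p 0.0278). Rnf17, a germ granule tudor protein, had a mean of 20.8 ± 14.5 CPM in Dnmt1cKO (SD, n = 8) and of 1.59 ± 2.96 CPM in the Controls (SD, n = 4), with a log2 fold change of 3.39 (edgeR adjusted p 0.158). Tdrkh, which recruits PIWI proteins to mitochondria, had a log2 difference of 2.30 (edgeR adjusted p 0.437), and Tdrd7, a granule protein also used outside the germ line, of 0.95 (edgeR adjusted p 0.712). Tdrd5 reached 1 CPM in 5 of 8 Dnmt1cKO libraries and Tdrd6 in 1, and neither had a Control count.

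Mael and Gtsf1 stand for the proteins that connect piRNAs to silencing in the nucleus. Mael (chr1:166201201-166238747, minus strand), a granule and nuclear protein with an HMG box, had 1 count in the Controls, in Control 3 (0.754 CPM). In Dnmt1cKO 1 to 8 it was at 12.3, 37.9, 26.2, 17.2, 21.0, 14.9, 18.8 and 0.571 CPM. Dnmt1cKO 8 was the single library that overlapped with the Controls. The mean was 18.6 ± 10.8 CPM in Dnmt1cKO (SD, n = 8) and 0.189 ± 0.377 CPM over the Controls (SD, n = 4). Against 1 count over the summed depth of all 4 Controls, most of which is that of Control 1, the ratio was 237.8 with a 95% counting interval of 42.7 to 9392. The log2 fold change was 7.07 (SE 1.77, edgeR adjusted p 0.0236). Gtsf1 (chr15:103402405-103430470, minus strand), a small zinc finger partner of PIWI proteins, was at 0 in all 4 Controls and at 2.85, 1.84, 3.60 and 5.94 CPM in Dnmt1cKO 3, 5, 6 and 7, with 0 in the remaining libraries. Its log2 fold change of 6.73 and SE of 2.998 did not reach the threshold (edgeR adjusted p 0.228).

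The nuclear partners were just as uneven. Tex15, which works with MIWI2 in transposon methylation, was present in all 8 Dnmt1cKO libraries at 25.2 ± 16.8 CPM (SD, n = 8), with a log2 difference of 2.24 that did not pass (edgeR adjusted p 0.318). Morc1, a further factor of transposon silencing in the male germ line, had no Control count and 3.23 ± 2.69 CPM in Dnmt1cKO (SD, n = 8; log2 fold change 7.58, edgeR adjusted p 0.141). Dnmt3l, the cofactor of new DNA methylation in germ cells, had 21 counts, all in a single Dnmt1cKO library, and was silent by the rule.

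The enzymes that finish piRNAs were low. Pnldc1, which trims their ends, was at 1 CPM or more in 2 of 8 Dnmt1cKO libraries, and Henmt1, which methylates the trimmed end, in 3 of 8. Neither had a Control count or enough counts for the test. Fkbp6, a cochaperone of PIWI loading, reached 6.71 ± 4.58 CPM (SD, n = 8), with 1 count over all 4 Controls, in Control 1 (0.123 CPM), and did not pass (log2 fold change 6.41, edgeR adjusted p 0.0964). Exd1, a partner of Tdrd12, varied from 0.225 to 39.4 CPM in Dnmt1cKO (log2 difference 1.40, edgeR adjusted p 0.647). Of the transcription factors of piRNA genes in spermatocytes, Mybl1 was at 5.38 ± 4.67 CPM (SD, n = 8; log2 difference 1.95, edgeR adjusted p 0.573) and Tcfl5 at 5.35 ± 5.203 CPM (SD, n = 8; log2 fold change 5.51, edgeR adjusted p 0.182). Prmt5 and Wdr77, which methylate the arginines that tudor domains bind and act in most cells, were at 96.2 ± 33.5 and 99.9 ± 18.9 CPM in Dnmt1cKO (SD, n = 8). Their log2 differences were 0.26 and -0.56, with edgeR adjusted p of 0.867 and 0.654.

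**Figure D3:**
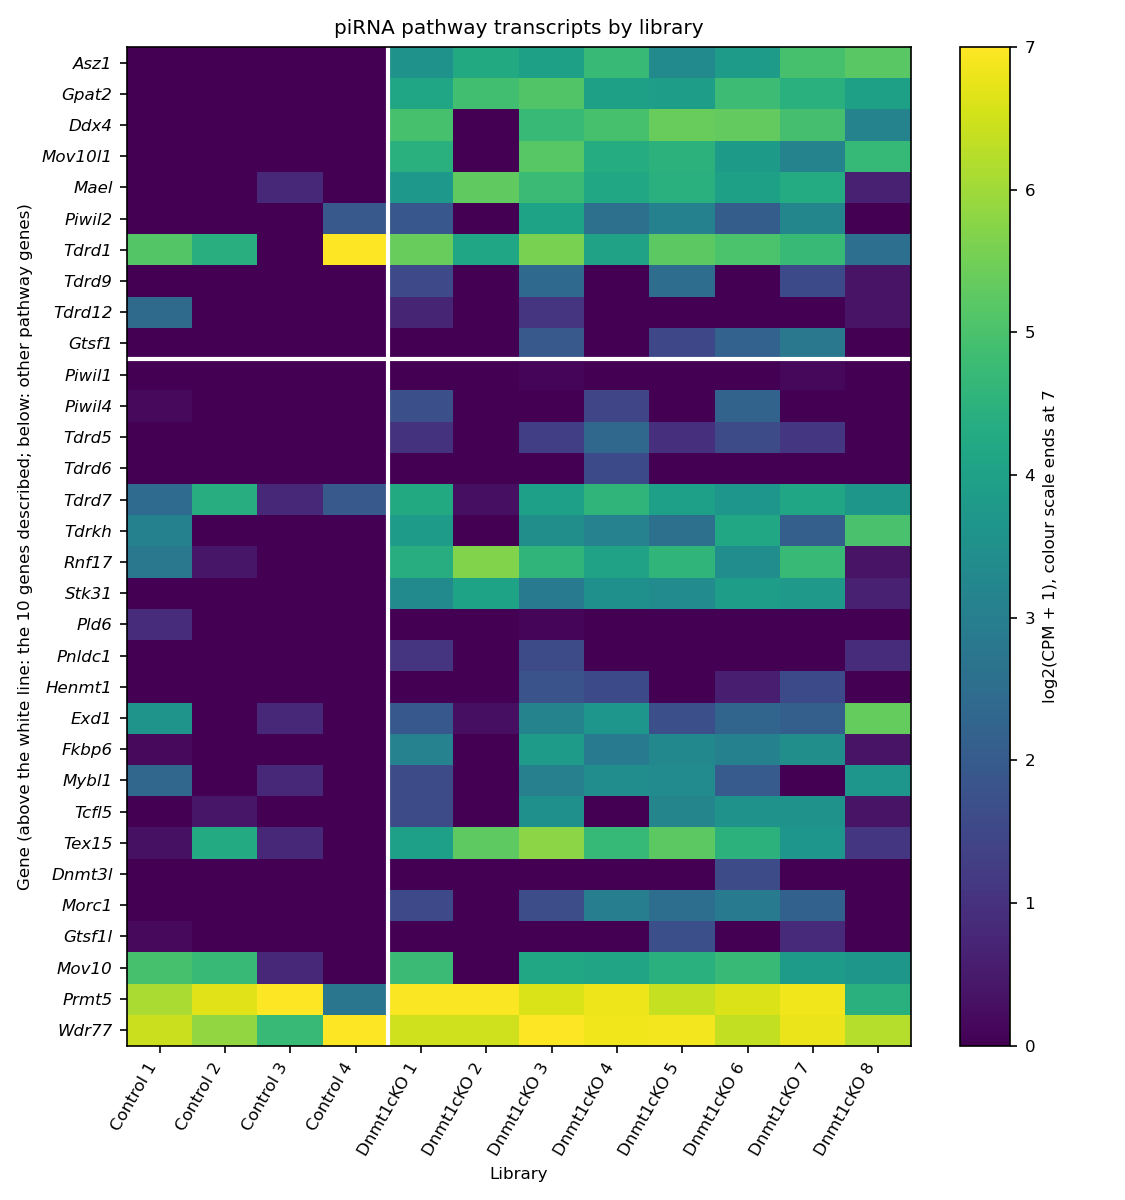
Level of the 10 genes and of the 22 other pathway genes that have a row in the table, one row per gene and one column per library, colored by CPM on a log2 scale. Asz1 and Gpat2 are filled across all 8 Dnmt1cKO columns, Prmt5 and Wdr77 across both groups, and Piwil1, Pld6 and Tdrd12 are nearly empty.

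Counted together, 5 of the 10 genes were called higher and 0 lower, where 1.03% of the 12761 genes tested were called higher and 1.55% lower in edgeR's quasi-likelihood test. At an unadjusted p under 0.05 the counts were 7 higher and 0 lower, against 8.19% of all tested genes higher. DESeq2 called 5 of the genes higher and 0 lower, against 519 (4.2%) of its 12355 genes higher and 1036 lower. All 8 Dnmt1cKO libraries lay above all 4 Controls for 2 of the 10 genes, against 2.59% of the genes tested. The median log2 fold change of the 9 tested genes was 7.07, or 6.24 with the genes at 0 in Control set to their lower bound, and that of all tested genes was 0.22. The 6 genes with no Control count could pass the filter only through Dnmt1cKO, and so could Stk31, counted below. Mael and Piwil2, with 1 Control count each, also depended on Dnmt1cKO to pass it. These figures therefore describe the list and are no independent support for its direction. Of the 26 further pathway genes, 22 had a row, 13 were tested, 1 was called higher (Stk31) and 0 lower, and an unadjusted p under 0.05 was met by 5 higher genes and 0 lower ones. By the level rule, 3 of the 22 were present (Tex15, Prmt5 and Wdr77), 14 patchy and 5 silent (Piwil1, Tdrd6, Pld6, Dnmt3l and Gtsf1l).

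Several calls depended on which libraries were used. Leaving out the library labelled Control 4 kept Asz1, Ddx4 and Gpat2 called and ended the calls of Mael (edgeR adjusted p 0.0719), Mov10l1 (0.0612) and Stk31, and with Controls 1 and 2 alone Asz1 and Gpat2 were called, while Mael, Mov10l1 and Ddx4 had log2 fold changes of 10.33, 10.28 and 10.78 without passing. With these 2 Controls and 6 Dnmt1cKO libraries (2 and 8 left out, chosen after seeing the data), all 5 were called and Piwil2 as well. Leaving out single Dnmt1cKO libraries ended the call of Mael without library 3 and that of Stk31 without library 1, 5 or 7. With limma-voom and quality weights 0 of the 10 were called, where 0.0627% of all tested genes were called higher.

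The 8 Dnmt1cKO libraries differed in how many of the genes they held. From Dnmt1cKO 1 to 8, 8, 4, 10, 7, 9, 8, 9 and 5 of the 10 genes stood at 1 CPM or more, and in Controls 1 to 4, 2, 1, 0 and 2. Dnmt1cKO 3 held all 10, and the lowest numbers belonged to Dnmt1cKO 2 and 8, the shallowest libraries of the group. Dnmt1cKO 2 lacked Ddx4 and Mov10l1 but had the highest Mael value (37.9 CPM), while Dnmt1cKO 8 lacked Piwil2 and nearly lacked Mael but had the highest Asz1 value (35.9 CPM). Stroma markers summed highest among Dnmt1cKO in library 2 (6230 CPM), and their part in its low number was not tested. With Dnmt1cKO 2 and 8 left out, a setting chosen after seeing the data, the same 5 genes were called.

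Nonzero values were seldom low, but values of 0 were more frequent than over all tested genes. Of the 102088 values of all tested genes in Dnmt1cKO, 5728 were 0. Of the 80 values of the 10 genes in Dnmt1cKO, 16 were 0, 2 were a single count, 2 lay from 2 to 9, 21 from 10 to 99 and 39 at 100 or more. Values of 1 to 9 made up 6.25% of the nonzero member values and 5.17% of those of all tested genes, so a gene in these libraries was mostly either at 0 or at 10 counts and above. Among the 5 called genes, levels across the 8 Dnmt1cKO libraries correlated from -0.495 to 0.746 (Pearson's r over 8 libraries that share depth and genotype, as a description). The highest value was that of Mov10l1 and Ddx4, both at 0 in Dnmt1cKO 2, and Mael and Gpat2 followed with 0.514.

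Each sample description also holds a code, b2 to b7, that the labels do not explain. Codes 4, 5, 6 and 7 each contain 1 Control and at least 1 Dnmt1cKO library. Within them, the log2 difference (pseudocount 2) was 3.08, 3.80, 2.46 and 3.74 for Asz1, 4.15, 3.08, 2.99 and 3.48 for Gpat2 and 3.78, 3.997, 4.41 and 3.53 for Ddx4. For Mov10l1 it was 4.22, 3.41, 3.57 and 2.98, and for Mael 3.82, 3.27, 3.06 and 2.27. All 5 called genes were thus higher in Dnmt1cKO within each of the 4 codes. They were called on these same libraries and had at most 1 Control count each, so this is no separate support. Tdrd1 changed sign between codes, with 0.45, -0.33, 4.28 and -3.61. The median over all tested genes moved from -0.027 in code 4 to 1.83 in code 7, where the Control is the library labelled Control 4. Of all 10 genes, 9, 6, 9 and 8 were higher in Dnmt1cKO within codes 4, 5, 6 and 7. Of all tested genes, 48.5%, 56%, 64.6% and 78.4% were higher in the same order.

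Levels of different genes can be set in order only per length of transcript. In mean Dnmt1cKO CPM per kilobase, Asz1 stood at 11.4 ± 5.64 and Mael at 11 ± 6.39 (SD, n = 8), followed by Ddx4 at 8.38 ± 4.73 and Gpat2 at 8.06 ± 2.87. Tdrd1 (5.26 ± 2.75) and Mov10l1 (4.30 ± 2.61) came next, and then Gtsf1 (2.2 ± 2.71), Piwil2 (1.08 ± 1.06), Tdrd9 (0.339 ± 0.400) and Tdrd12 (0.0692 ± 0.112). In all 9 pairs of neighbours the gap was smaller than the larger SD over libraries. The genes were measured in the same 8 libraries, and differences between neighbours within libraries were not tested. On the same scale Prmt5, which is used in most cells, stood at 35.7 and Wdr77 at 27.1, while Fkbp6 stood at 4.64, Rnf17 at 3.96, Stk31 at 3.04 and Piwil1 at 0.0056 CPM per kilobase. Asz1, Gpat2, Ddx4 and Mov10l1 thus had higher means on this scale than Piwil2, and Tdrd9 and Tdrd12 lower ones.

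Among all tested genes outside the pathway lists, 5 followed the mean of the 9 tested members most closely, by Pearson's r of log2(CPM + 2) over the 12 libraries. They were Clvs1 (0.958), Pet2 (0.947), Wnt10b, a secreted Wnt ligand (0.934), BC080695 (0.926) and 4930550L24Rik (0.923). Within the 8 Dnmt1cKO libraries alone, r was 0.867, 0.723, 0.987, 0.824 and 0.797 in the same order. Pet2, BC080695 and 4930550L24Rik had no Control count, and Wnt10b had 42. The correlations are descriptive, since all genes share the depth and genotype of these libraries.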

How the data were processed

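RNA was measured by RNA-seq of polyadenylated RNA in 12 libraries, 4 Control and 8 Dnmt1cKO, grouped by the genotype labels. The deposited table gives RSEM expected counts (estimated counts) per gene symbol. Per the submitters' processing notes the authors used RSEM 1.2.3, Bowtie 0.12.9 and bcl2fastq 2.17.1.14 on build mm10. For the annotation and the use of strand, the sources used here say nothing. Fractional expected counts, which mark reads shared between genes or transcripts, occurred in Tdrd1, Piwil2, Ddx4 and Gtsf1, and no exon of the 10 genes overlapped an exon of another gene in GENCODE M21, from which gene positions and transcript lengths were taken.

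Expected counts were rounded. All genes passing filterByExpr (minimum count 10, minimum total 15) were fitted with edgeR 4.0.16 in R 4.3.3 by quasi-likelihood F-test with TMM factors, with Benjamini-Hochberg adjustment over the 12761 genes tested and a threshold of 0.05. The fit was checked on simulated data that varied less between libraries than these data. The changed genes in that check were all well counted, so it does not cover genes at 0 in Control. Of the 10 genes, 9 passed the filter. CPM is the rounded count over the TMM-adjusted library total. A ratio to Controls at 0 is a lower bound against 3 counts over the whole Control group, and 1 to 3 Control counts give an exact 95% Poisson interval. No molecular identifiers are mentioned, so intervals and floors cover counting error only. Whether libraries with the same code came from separate pools is not stated, so the spread behind the p-values may be technical.

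Alternatives were RLE factors, library totals, no filter, DESeq2 1.42.0, voom with quality weights (limma 3.58.1), each library left out, Controls 1 and 2 alone, and blocks by code or title number. The genes named are all 10 members, Dnmt1, every gene of the 26-gene pathway list, and the 5 genes most like the members. The members and lists were chosen with earlier results of these data known. Btbd18, Spocd1, Dnmt3c and Gtsf2 were not analysed here.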

Additional observations from a re-analysis of the deposited data

Results flagged for a closer look

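In 4 of 17 sets of values looked at (a gene within a group of libraries), a single library stood apart from the rest of its group by Dixon's criterion at the 95% level. For Mael, Piwil2 and Tdrd12 the other Controls were all at 0, so any count in the remaining library meets the criterion, and the usual chance rate of about 1 in 20 groups does not hold for them. Tdrd1 was at 224.6 CPM in the library labelled Control 4, and the next Control was at 33.8 CPM. Piwil2 was at 2.84 CPM in the same library, from 1 count, and at 0 in the other Controls. Mael was at 0.754 CPM in Control 3, also from 1 count, and at 0 in the others. Tdrd12 was at 4.30 CPM in Control 1, from 35 counts, and at 0 in the other Controls, all of which are shallower. The calls without the library labelled Control 4 stand in the report beside the counts.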

How the results depend on the processing

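The 5 genes called (Asz1, Gpat2, Ddx4, Mov10l1 and Mael) stayed at 5 with RLE factors, library totals, no filter and DESeq2, where 8 of the 10 had an adjusted p. The number was 0 with limma-voom and 2 with Controls 1 and 2 alone, and it ranged from 3 to 5 when single libraries were left out. The low end is that without the library labelled Control 4, and without Dnmt1cKO 3 it was 4 (Mael lost, edgeR adjusted p 0.0524). The count of 1 further pathway gene became 3 with DESeq2 (Rnf17, Stk31 and Fkbp6), 0 with limma-voom, 0 with Controls 1 and 2 alone, and 0 to 2 when single libraries were left out. It was 0 without the library labelled Control 4 or Dnmt1cKO 1, 5 or 7, and 2 without Control 1, Control 2 or Dnmt1cKO 2. In both settings added after seeing the data, with Dnmt1cKO 2 and 8 left out, it was 2 (Stk31 and Fkbp6). The log2 difference of Tdrd1 turned from -1.31 to 0.47 with limma-voom, 0.095 with Controls 1 and 2 alone, 0.36 with these and 6 Dnmt1cKO libraries, and ranged from -1.72 to 0.66 when single libraries were left out. Over all genes, 132 were called higher and 198 lower, against 170 and 726 under RLE scaling, 113 and 47 under scaling by totals, and 519 and 1036 in DESeq2. Over all alternatives the adjusted p ranged from 1.31e-05 to 0.456 for Mael, from 2.74e-05 to 0.498 for Mov10l1, from 0.0403 to 0.907 for Piwil2 and from 0.0855 to 0.993 for Tdrd1 (edgeR, DESeq2 or limma). The causes were not tested.

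The replicate block was fitted with the code and with the title number. Deviations of same-numbered libraries correlated between -0.0461 and 0.0536 for codes and between -0.055 and 0.0611 for title numbers. Of the 4 Controls, 1 correlated best with a library of its own code and 0 with one of its own title number. These values show no pairing but cannot exclude it, because counting noise in the shallow Controls can hide a shared deviation. Correlations of differently numbered libraries are not given for comparison. With the code as a block, 5 of the 10 genes and 0 of the further pathway genes were called. With the title number as a block the counts were 0 and 0, and the Tdrd1 difference was 0.12.

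Depth limits what absence means. Tdrd9, Gtsf1 and Tdrd12 had Dnmt1cKO levels below 8.53 CPM in every library, the level of 3 counts in the library labelled Control 4, so a 0 in that library says little about them.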
